A study of Mus musculus with 6 samples.

Results

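Among the 23420 genes measured by RNA-seq in mouse splenic B cells, 10 genes of MyD88 and IRAK signalling were followed. They were picked by symbol, for what their products do, with earlier results of these data known. They are the adaptors Myd88, Tirap and Ticam1, the kinase family Irak1, Irak2, Irak3 and Irak4, the kinase Map3k7 with its binding partner Tab2, and the receptor chaperone Unc93b1. The cells had been purified with beads from spleens of BALB/c mice, wild-type and aged 7 to 11 weeks, with no transgene or deletion in either group. After culture for 4 hours at 10M cells per ml, one group of 3 samples had received the TLR9 agonist CpG ODN 1826, a synthetic DNA with unmethylated CpG motifs, at 10 µg/ml, and the other 3 samples had received no stimulus. Replicates 1 and 2 of each group were female and replicate 3 was male, and the labels name 3 mice without tying each sample to a mouse.

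TLR9 is an endosomal receptor for DNA. It reaches the endosome with the help of Unc93b1, a membrane protein that carries the nucleic-acid-sensing TLRs out of the endoplasmic reticulum. When the receptor's TIR domain is engaged, MyD88 binds it and gathers IRAK4, then IRAK1 or IRAK2, into a complex held together by death domains. The IRAKs hand the signal to the ubiquitin ligase TRAF6. Ubiquitin chains made by TRAF6 are read by TAB2, which brings in the kinase TAK1, the product of Map3k7, and TAK1 starts the NF-κB and MAP kinase branches. IRAK3, also called IRAK-M, lacks normal kinase activity and is known as a brake on this pathway in macrophages.

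After CpG, 5 of the 10 genes rose, 4 fell and Tirap was not called. The genes that rose were Ticam1, Myd88, Irak4, Unc93b1 and Map3k7, by between 1.25-fold and 1.75-fold. Those that fell were Irak3, 3.15-fold lower, Irak2, 2.09-fold lower, Tab2, 1.69-fold lower, and Irak1, 1.17-fold lower. The IRAK family was thus split, with Irak4 higher and the other members lower. A call was a false discovery rate (FDR) under 0.05 in a limma model of CpG against unstimulated samples, with Benjamini-Hochberg adjustment over 11233 genes whose value exceeded that of 10 reads in at least 3 samples. All 10 genes passed that filter, and the lowest value of any of them, in any sample, was worth 199 reads.

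These counts stand on a background in which most genes moved. In the same model 37.6% of tested genes were higher and 36.7% were lower, 74.3% in all, beside 9 of the 10 adaptor genes. A fall past a log2 fold change (log2FC) of -1 was called for 15.3% of genes and for 2 of the 10, Irak2 and Irak3, whereas a rise past 1 was called for 15.8% of genes and for 0 of the 10. The CpG and unstimulated samples did not overlap for 77.7% of genes and for 9 of the 10. The median size of the log2FC was 0.48 for the 10 genes and 0.64 for all tested genes. Since these are bulk samples, a lower value from fewer cells of a type and from less RNA per cell cannot be told apart.

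**Figure D1:**
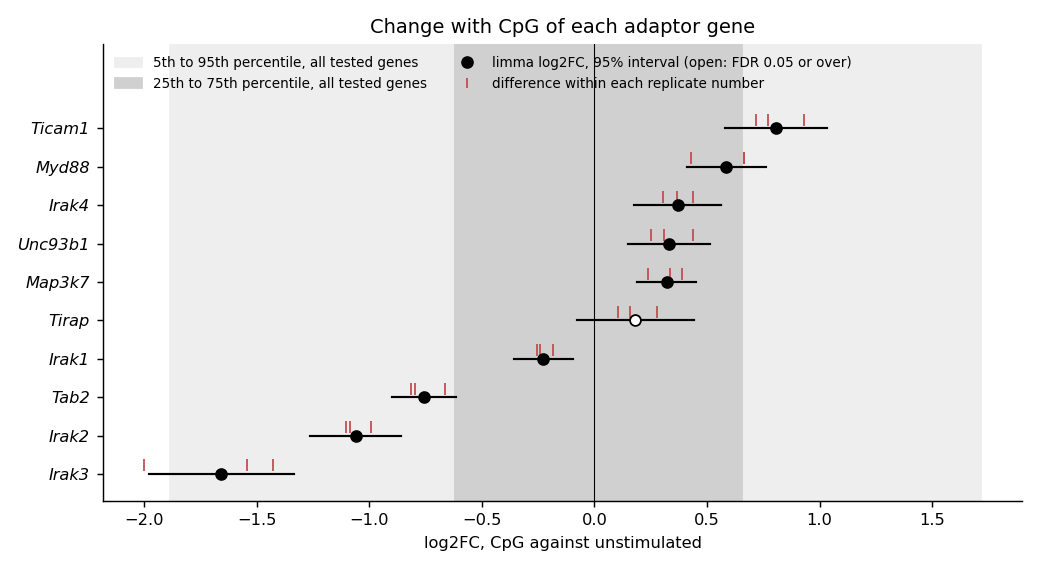
Change of each of the 10 adaptor genes with CpG. The x axis is the log2FC, CpG against unstimulated, and the y axis lists the genes. Circles are limma estimates with 95% intervals, open for an FDR of 0.05 or over. Red ticks are the differences within each replicate number, and grey bands hold the middle of all 11233 tested genes. Irak3, at -1.66, lies within the outer band, which spans -1.88 to 1.72, and Ticam1, at 0.81, is the highest.

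The proximal promoters of the genes with the largest falls and the largest rises were read for short letter patterns around their annotated starts. RefSeq promoter windows on GRCm38.p6, from 250 bases before to 50 after a start, were found for 9 of the 10 genes, in 13 windows. Unc93b1 was not among them. The stretches shown are those of Irak3 and Irak2, the genes that fell most, and of Ticam1 and Myd88, those that rose most, without bases annotated as UTR. They lie at chr10:120201660-120201847 on the minus strand (Irak3), chr6:113638217-113638466 on the plus strand (Irak2), chr17:56276787-56277017 on the minus strand (Ticam1) and chr9:119340042-119340268 on the minus strand (Myd88). The Irak3 stretch is from the first of its 2 RefSeq windows. The second, whose start is the end of the GENCODE gene span, held no match to any of the motifs. The starts used for Irak3, Ticam1 and Myd88 lie inside the GENCODE spans. Capitals mark complete matches, on either strand, to any of the 6 motifs given with the counts that follow.
Irak3: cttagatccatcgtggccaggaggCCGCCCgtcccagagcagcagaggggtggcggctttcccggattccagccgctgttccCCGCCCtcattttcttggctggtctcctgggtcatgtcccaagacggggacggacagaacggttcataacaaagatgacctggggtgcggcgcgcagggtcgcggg
Irak2: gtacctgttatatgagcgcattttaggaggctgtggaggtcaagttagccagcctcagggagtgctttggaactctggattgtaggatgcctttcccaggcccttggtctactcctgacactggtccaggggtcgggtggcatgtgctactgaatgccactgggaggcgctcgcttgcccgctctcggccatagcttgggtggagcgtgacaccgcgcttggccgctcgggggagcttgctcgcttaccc
Ticam1: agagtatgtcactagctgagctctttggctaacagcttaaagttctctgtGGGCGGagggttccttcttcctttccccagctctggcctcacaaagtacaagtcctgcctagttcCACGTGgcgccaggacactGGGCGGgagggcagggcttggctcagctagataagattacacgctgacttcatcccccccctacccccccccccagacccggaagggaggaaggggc
Myd88: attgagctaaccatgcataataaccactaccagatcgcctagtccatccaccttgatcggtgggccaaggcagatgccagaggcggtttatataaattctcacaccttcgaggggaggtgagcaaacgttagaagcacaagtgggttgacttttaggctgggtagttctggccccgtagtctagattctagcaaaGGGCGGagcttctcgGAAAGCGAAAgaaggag

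The motifs were searched in the whole windows, on both strands. A loose NF-κB pattern, GGG and CC with any 5 bases between them, was found in at least 1 window of 7 of the 9 genes, and in 50.8% of all 32851 promoter windows. Of the 13 windows of the 9 genes, 9 held it. The GC box, GGGCGG, was found for all 9 genes, in 11 of the 13 windows, and in 35.7% of all windows. It can overlap the NF-κB pattern, as it does before the start of Ticam1, and NF-κB matches also overlap each other, as in Irak3. The interferon response pattern, a GAAA pair with any 2 bases between, held by 3.44% of windows, was found for Myd88 alone of the 9, as GAAAGCGAAA at positions -40 to -31 from the start. The E-box CACGTG, in 7.15% of windows, was found for Irak3 and for Ticam1, in the latter at -135 to -130. Neither the AP-1 pattern TGANTCA, in 7.81% of windows, nor the palindromic CRE, in 1.79%, was found for any of the 9. In the 250 bases before the Irak2 start none of the 6 motifs was matched, and its matches lay after the start. Genes that rose and genes that fell both held the NF-κB pattern and the GC box.

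Irak3 had the largest fall of the 10. The gene lies at chr10:120141648-120202130 on the minus strand. Its values in the unstimulated samples were 5.49, 5.56 and 5.49 log2 CPM (read counts scaled to a common total), and in the CpG samples 3.49, 4.13 and 3.94. Every CpG sample was lower than every unstimulated one, and the CpG samples were spread more widely, with an SD of 0.33 against 0.044 (n = 3 each). The log2FC was -1.66 ± 0.14 (SE, 95% interval -1.98 to -1.34, FDR = 2.89e-06), and 93.3% of tested genes had a higher log2FC. Leaving out each sample in turn gave values from -1.80 to -1.47. Exons of Tmbim4 on the opposite strand cover 5.22% of the Irak3 exon bases, and Tmbim4 itself differed by -0.30 in log2FC. Whether the reads were counted by strand is not given in the sources used here.

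Since Irak3 is best known from monocytes and macrophages, myeloid transcripts were read beside it. Of 7 myeloid markers 4 had a mean value over 10 reads. The summed level of all 7 was 7.52 to 14.9 CPM in the unstimulated and 10.1 to 15.8 CPM in the CpG samples, so that the groups overlapped. Of the 7 markers 6 had a lower mean with CpG and 1, Emr1, had a higher one. The macrophage receptor gene Csf1r went from a mean of -0.37 to -1.98 log2 CPM and Cd14, the lipopolysaccharide co-receptor, from 0.51 to -1.23. Both CpG means were under the value of 10 reads. Lyz2, encoding lysozyme, was at 1.32 and 1.11, and the integrin gene Itgam at 0.13 and 0.06. For Lyz2 and Itgam the samples of the groups overlapped. The alarmin genes S100a8 and S100a9 went from -1.39 and -1.73 to -4.07 and -2.81, the CpG means being under the value of 3 reads. Emr1 (Adgre1, F4/80), which gave the largest part of the summed CPM, went from 2.34 to 3.16. The part of these transcripts in the Irak3 result was not tested.

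Irak2 encodes an IRAK that shares the middle of the pathway with IRAK1 and prolongs signalling in macrophages. It lies at chr6:113638467-113695026 on the plus strand. The unstimulated samples stood at 7.53, 7.74 and 7.59 log2 CPM and the CpG samples at 6.42, 6.74 and 6.50, without overlap. In both groups replicate 2 was the highest. The log2FC was -1.06 ± 0.091 (SE, 95% interval -1.27 to -0.86, FDR = 2.73e-06), and the differences within replicate numbers ran from -1.10 to -0.99. The fall past -1 rests on CpG replicate 1, for without it the log2FC was -0.99.

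Irak1, the kinase that IRAK4 phosphorylates, changed least of the called genes. It lies on the X chromosome, at chrX:74013914-74023918 on the minus strand. Its values were 7.27, 7.28 and 7.32 log2 CPM without stimulus and 7.02, 7.04 and 7.14 with CpG. The groups did not overlap, although the shift was small. The log2FC was -0.23 ± 0.059 (SE, 95% interval -0.36 to -0.10, FDR = 0.00543), and the male samples, replicate 3, were the highest of each group.

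Irak4, the first kinase to join MyD88, was the IRAK gene that rose. It lies at chr15:94543643-94581815 on the plus strand. It read 4.55, 4.58 and 4.76 log2 CPM in the unstimulated and 4.99, 4.94 and 5.06 in the CpG samples, and the lowest CpG sample was above the highest unstimulated one. The log2FC was 0.37 ± 0.086 (SE, 95% interval 0.18 to 0.56, FDR = 0.00285). Exons of Twf1 on the opposite strand cover 7.87% of the Irak4 exon bases, and Twf1 rose too, by 0.54 in log2FC. Its part in the Irak4 result was not tested.

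Per length, these changes altered the make-up of the family. Each gene's CPM was divided by its annotated exon length, and shares were taken of the sum over the IRAK genes in each sample. Irak2 had the largest share without stimulus, 46.8% ± 1.78 (SD, n = 3), and was at 35.6% ± 2.6 with CpG. Irak1 went from 34.9% ± 1.39 to 47.2% ± 2.62 and was then the largest. Irak4 went from 5.19% ± 0.444 to 10.6% ± 0.795, and Irak3 from 13% ± 0.274 to 6.60% ± 1.09. In each unstimulated sample the Irak3 share exceeded that of Irak4, and in each CpG sample the order was turned. With the longest coding transcript as the length the shares of Irak3 and Irak4 were 11.8% and 5.81% without stimulus and 6.0% and 11.9% with CpG. The share of Irak1 rose while its own value fell, because the summed level of the family went from 6.57 ± 0.057 to 5.91 ± 0.085 log2 CPM per kb.

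**Figure D2:**
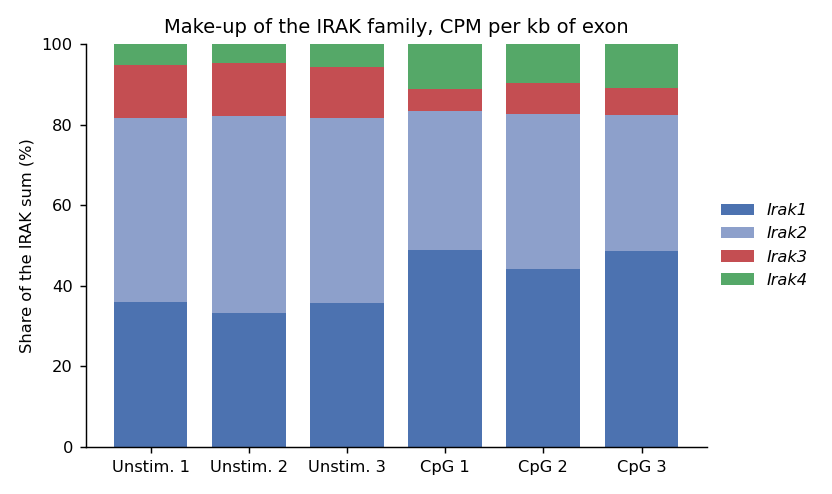
Share of each IRAK gene in the summed IRAK level of each sample. The y axis is the percentage of the sum of CPM per kb of exon and the x axis lists the 3 unstimulated and 3 CpG samples. Irak3 takes 12.8% to 13.3% without stimulus and 5.42% to 7.57% with CpG, and Irak4 4.79% to 5.67% and 9.71% to 11.2%.

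The adaptors bind receptors upstream of the IRAKs. Myd88, used by all TLRs but TLR3 and by receptors of the interleukin-1 family, lies at chr9:119335934-119341411 on the minus strand. Its values were 5.16, 5.35 and 5.28 log2 CPM without stimulus and 5.83, 5.77 and 5.94 with CpG. The groups were separate, and the log2FC was 0.59 ± 0.078 (SE, 95% interval 0.41 to 0.76, FDR = 6.67e-05). The smallest difference was within replicate 2, at 0.43. Exons of Acaa1a, on the opposite strand, cover 11.3% of the Myd88 exon bases. Acaa1a moved the other way, from 3.83 to 2.55 log2 CPM.

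Ticam1 encodes TRIF, the adaptor of TLR3 and of internalised TLR4, which TLR9 does not use. It lies at chr17:56269319-56276786 on the minus strand. It read 4.68, 4.41 and 4.38 log2 CPM without stimulus and 5.40, 5.18 and 5.31 with CpG. All CpG samples exceeded all unstimulated ones. The log2FC, 0.81 ± 0.10 (SE, 95% interval 0.58 to 1.03, FDR = 4.33e-05), was the highest of the 10, and 20.7% of tested genes had a higher one.

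Tirap encodes the sorting adaptor that helps MyD88 reach TLRs at membranes, chiefly TLR2 and TLR4. It lies at chr9:35184551-35200291 on the minus strand. Its values were 4.19, 4.10 and 4.33 log2 CPM without stimulus and 4.29, 4.25 and 4.61 with CpG. CpG replicates 1 and 2 lay below unstimulated replicate 3, so the groups overlapped, although within each number the CpG sample was the higher. The log2FC of 0.18 ± 0.12 (SE, FDR = 0.18) was not called, and its 95% interval, -0.08 to 0.44, leaves room for a rise of the size seen for Irak4.

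**Figure D3:**
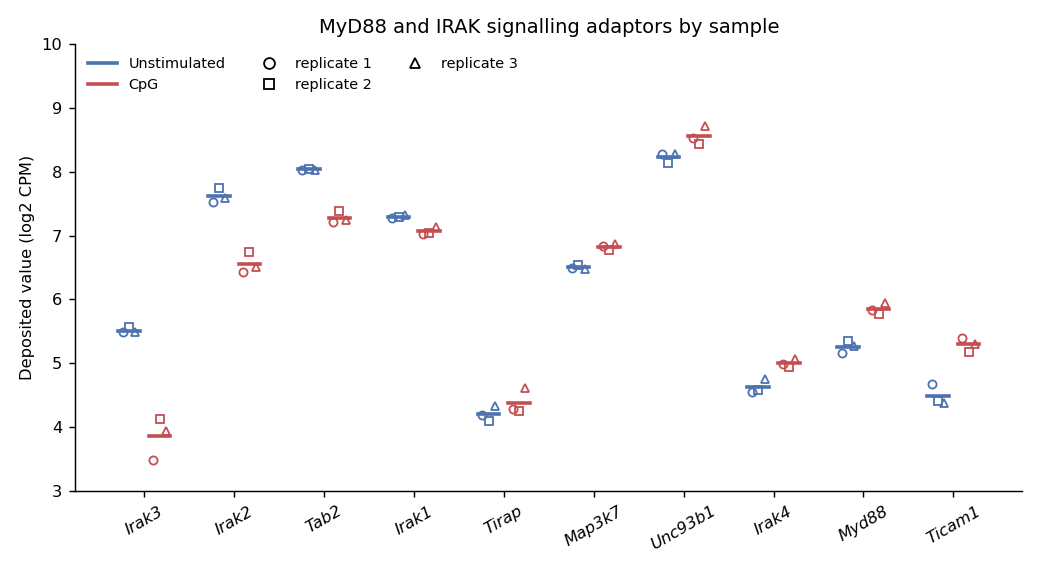
Values of the 10 adaptor genes in each of the 6 samples. The y axis is the deposited log2 CPM and the x axis lists the genes by log2FC. Symbols are samples, by replicate number, and horizontal bars are group means. Tirap is the gene whose groups overlap, and the CpG samples of Irak3 are spread from 3.49 to 4.13.

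Downstream, the 2 genes of the TAK1 complex moved in opposite directions. Map3k7, encoding TAK1, lies at chr4:31964097-32023467 on the plus strand. Its values were 6.50, 6.54 and 6.47 log2 CPM without stimulus and 6.83, 6.78 and 6.86 with CpG, a log2FC of 0.32 ± 0.059 (SE, 95% interval 0.19 to 0.45, FDR = 0.000638). Tab2, which reads ubiquitin chains for TAK1, lies at chr10:7905653-7956230 on the minus strand. It stood at 8.03, 8.05 and 8.03 log2 CPM without stimulus, an SD of 0.0091, and at 7.21, 7.38 and 7.24 with CpG, a log2FC of -0.76 ± 0.063 (SE, 95% interval -0.90 to -0.62, FDR = 2.13e-06). In neither gene did the groups overlap. Values are also given for the other TAK1-binding genes. Tab1, encoding an activator of TAK1, had a log2FC of 0.29 ± 0.093 (SE, FDR = 0.0163), which was not called in 4 alternatives, with FDR up to 0.142 in the female samples. Tab3, a relative of Tab2, was at -0.15 ± 0.078 (SE, FDR = 0.0991). Traf6, encoding the ligase between the IRAKs and TAB2, rose by 0.64 ± 0.064 (SE, FDR = 8.23e-06).

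Unc93b1 lies upstream of all of these, at the receptor. The gene is at chr19:3935186-3949340 on the plus strand. It read 8.28, 8.13 and 8.28 log2 CPM without stimulus and 8.53, 8.44 and 8.72 with CpG. The groups were separate, and the log2FC was 0.33 ± 0.081 (SE, 95% interval 0.15 to 0.51, FDR = 0.00378). When genes of low value were kept in the model the same difference had an FDR of 0.0518 and was not called. Of the receptors it carries, Tlr7 and Tlr9 passed the filter, and Tlr3, Tlr8 and Tlr13 did not. Tlr9 went from 6.71, 6.59 and 6.56 log2 CPM to 7.78, 7.51 and 7.77, a log2FC of 1.07 ± 0.083 (SE, FDR = 1.37e-06), and Tlr7, the receptor for single-stranded RNA, from 4.73, 4.13 and 4.10 to 6.33, 6.17 and 6.03, a log2FC of 1.86 ± 0.16 (SE, FDR = 2.56e-06).

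Differences between genes within a sample set the partners side by side. Their change with CpG does not depend on gene length. Irak4 against Irak3, the first kinase against the brake, changed by 2.03 log2 units, or 4.08-fold, and by 1.80 to 2.44 within replicate numbers. For Myd88 against Irak3 the change was 2.24 log2 units, or 4.73-fold. Map3k7 against Tab2 changed by 1.08 log2 units, Irak1 against Irak2 by 0.83, Ticam1 against Tirap by 0.63, and Traf6 against Tab2 by 1.40. At the receptor, Tlr7 against Unc93b1 changed by 1.53 log2 units and Tlr9 against Unc93b1 by 0.74. For each of these 8 pairs the 2 groups of 3 did not overlap. The share of all gene pairs without overlap was not computed, and 77.7% of single tested genes did not overlap. Where a gene that rose was set against one that fell, as for Irak4 against Irak3, the separation follows from those of the 2 genes. The two-sided exact permutation test, run without the pairing by number, gave p = 0.1 for each pair. That is the smallest p this number of samples allows in the unpaired test, before and after adjustment over the 8.

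On the scale of levels per length, in log2 CPM per kb of exon, Unc93b1 was highest in both groups, at 6.63 ± 0.085 without stimulus and 6.96 ± 0.14 with CpG (SD, n = 3). Without stimulus it was followed by Irak2, Tab2, Irak1, Myd88, Map3k7, Irak3, Ticam1, Irak4 and Tirap, down to 1.90 ± 0.12. In that order the samples of Irak2 and Tab2 overlapped, as did those of Myd88 and Map3k7, and all other neighbours were separate. With CpG the order was Unc93b1, Irak1, Tab2, Myd88, Irak2, Map3k7, Ticam1, Irak4, Tirap and Irak3, and the samples of Myd88 and Irak2 and of Tirap and Irak3 overlapped. Irak3 moved from rank 7, at 3.63 ± 0.044, to rank 10, at 1.98 ± 0.33. Irak2 moved from rank 2 to rank 5. With the longest coding transcript as the length, Irak3 ended at rank 9 and Irak2 at rank 4, with overlapping neighbours in both cases. By that length Tab2 stood above Irak1 with CpG, and their samples overlapped. Without stimulus Ticam1 and Irak4 overlapped by that length, while Myd88 and Map3k7 were separate.

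**Figure D4:**
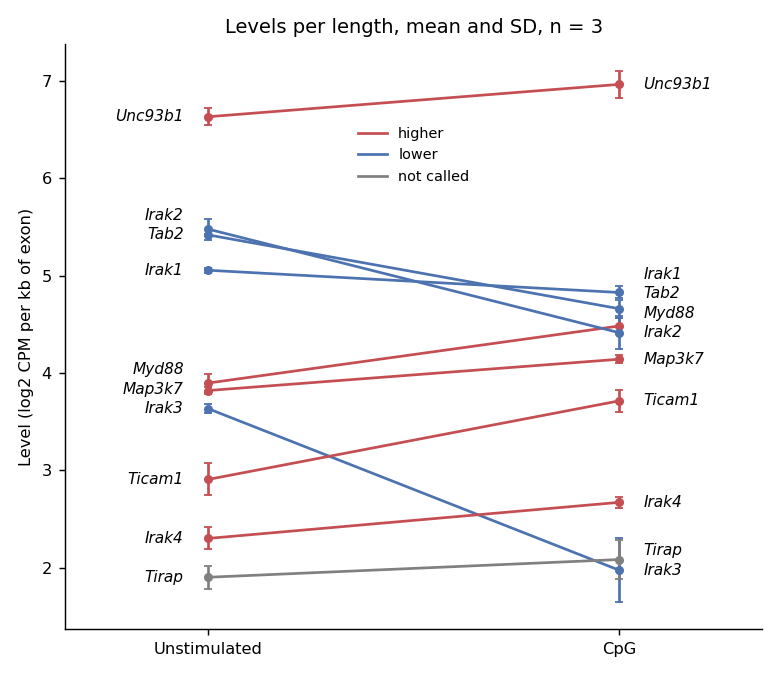
Level per length of the 10 adaptor genes in unstimulated and CpG samples. The y axis is log2 CPM per kb of exon, points are means and bars SD of 3 samples. Red lines join genes called higher, blue lines genes called lower and the grey line Tirap, which was not called. Irak3 drops from rank 7 to rank 10 and crosses Ticam1, Irak4 and Tirap.

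Of 76 other genes of the pathway, in 8 lists, 69 were tested, of which 28 rose, 23 fell and 18 were not called. These are 40.6% and 33.3% of the 69, close to the 37.6% and 36.7% of all tested genes, so the counts show nothing particular to the pathway. In 4 of the 69, Il18rap, Irak1bp1, Map2k6 and Tnip3, all samples of the lower group were under the filter value, so that they were tested only through the higher group. Without them 25 of 65 rose and 22 fell. The median log2FC was 0.056 for the 69 and 0.041 for the 65, beside 0.0033 for all tested genes and 0.25 for the 10 adaptor genes. Among endosomal TLRs and their partners 2 of 5 tested genes rose and 2 fell. The fall was largest for Slc15a4, encoding an endolysosomal transporter needed for endosomal TLR responses, from 7.37, 7.47 and 7.46 log2 CPM to 5.45, 5.92 and 5.64, a log2FC of -1.77 ± 0.11 (SE, FDR = 2.44e-07).

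Among members of the interleukin-1 receptor family, some of which share MyD88 with the TLRs, 2 of 6 tested genes rose, 1 fell and 3 were not called, or 1 and 1 of 5 without Il18rap. Sigirr, encoding an inhibitory receptor of the family, fell by 2.37 on the log2 scale (SE 0.14, FDR = 2.13e-07). Il18rap, encoding a chain of the interleukin-18 receptor, read -3.30, -3.35 and -2.14 log2 CPM without stimulus, around the value of 3 reads, and -0.66, -0.76 and -0.39 with CpG, close to that of 10 reads. Since it passed the filter only through the CpG samples, its call carries no weight.

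Of 8 tested adaptors and IRAK partners outside the 10 genes, 3 rose and 4 fell, or 2 and 4 of 7 without Irak1bp1. Irak1bp1, encoding a protein that binds IRAK1, went from -1.46, -1.58 and -1.21 log2 CPM to 1.80, 1.41 and 1.67. It too passed the filter only through the CpG samples, and its difference of 3.04 was 1.57 on the log2(CPM + 1) scale. Tifa, encoding an adaptor that binds TRAF6, fell by 2.51 on the log2 scale (SE 0.24, FDR = 6.37e-06).

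Of the 9 genes of TRAF6, its ubiquitin enzymes and TAK1 partners, 4 rose and 2 fell. Ube2n, encoding the conjugating enzyme Ubc13 that works with TRAF6, rose by 0.66 ± 0.074 in log2FC (SE, FDR = 1.95e-05). Sharpin, encoding a subunit of the linear ubiquitin ligase, fell by 0.63 on the log2 scale (SE 0.081, FDR = 5.09e-05).

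Of the 9 genes of the IKK and TBK1 kinases and their partners 3 rose and 4 fell. Ikbke, encoding IKKε, rose from 1.54, 1.11 and 1.40 log2 CPM to 4.86, 4.62 and 4.45, a log2FC of 3.29 ± 0.16 (SE, FDR = 6.33e-08). Tbk1, encoding its relative, fell by 0.53 on the log2 scale (SE 0.065, FDR = 3.87e-05). Of the 9 MAP kinase genes 3 rose and 4 fell, or 3 and 3 of 8 without Map2k6. Map2k3 and Map2k6 both encode kinases that activate p38. Map2k3 rose by 0.91 ± 0.077 in log2FC (SE, FDR = 2.4e-06), and Map2k6 went from 0.96, 0.38 and 1.24 log2 CPM to -1.57, -1.94 and -2.68. All CpG values of Map2k6 were under the value of 10 reads, so that it passed the filter only through the unstimulated samples, and its difference of -2.93 was -1.18 on the log2(CPM + 1) scale.

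Of the 12 inhibitors of MyD88 signalling 7 rose and 3 fell, and their median log2FC was 0.61. These are 58.3% and 25% of 12 genes, beside 37.6% and 36.7% of all tested genes, and the difference was not tested. Without Tnip3, which passed the filter only through the CpG samples, 6 of 11 rose, with a median of 0.55. Neither Irak3 nor Sigirr, encoding an inhibitory receptor, was in that list. Both fell, so the shares depend on which genes were listed. Nfkbiz, encoding the nuclear IκBζ, rose by 3.52 ± 0.085 in log2FC (SE, FDR = 5.4e-09), to 11.7, 11.4 and 11.6 log2 CPM. Although it stands in the list, IκBζ is also known to turn on some NF-κB targets. Cyld, encoding a deubiquitinase, fell by 1.56 on the log2 scale (SE 0.068, FDR = 4.61e-08). Of the 11 transcription factor genes 4 rose and 3 fell. Nfkb1 rose by 1.71 ± 0.11 in log2FC (SE, FDR = 3.05e-07) and Rel fell by 1.21 on the log2 scale (SE 0.074, FDR = 2.67e-07), both encoding NF-κB subunits.

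**Figure D5:**
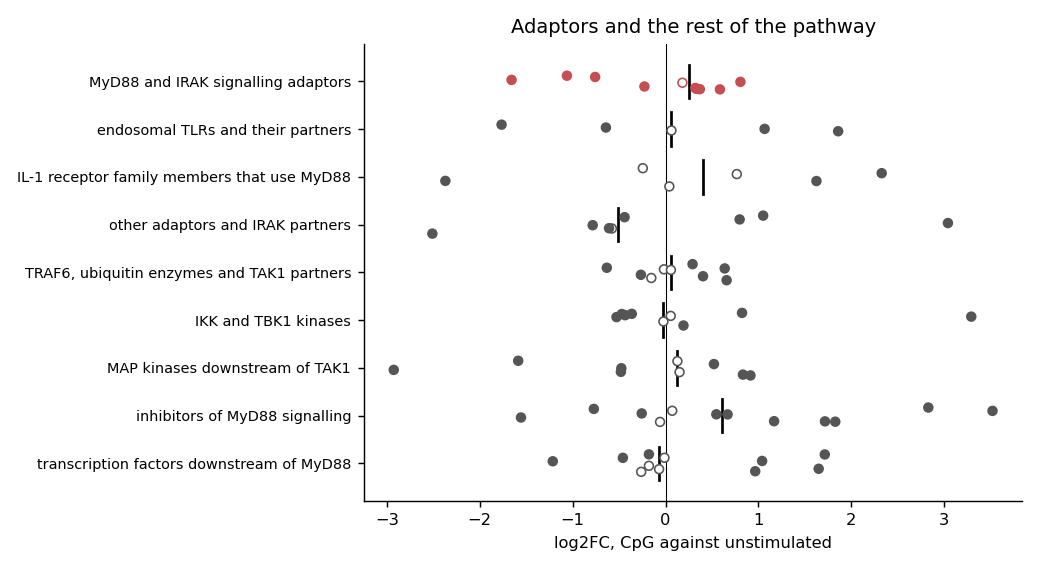
Change with CpG of the adaptor genes and of 8 other lists of the pathway. The x axis is the log2FC, CpG against unstimulated. Each point is a tested gene, filled where the FDR was under 0.05, and black bars are list medians. The 10 adaptor genes, in red, run from -1.66 to 0.81, within the -2.93 to 3.52 of the other lists.

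The genes whose values over the 6 samples, each centred on its own mean, lay nearest to those of Ticam1 and Irak3 were found by Euclidean distance. For Ticam1 these were Erap1, Taco1, Sf3a2, Ttll4 and Ddx21, at 0.076 to 0.117 log2 units, where the median distance of all tested genes was 1.23. For Irak3 they were Wdr45, Leprotl1, Sirt4, Wbp1 and Pkig, at 0.143 to 0.211 log2 units against a median of 2.16. The distances describe 6 samples and were not tested.

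The labelled cell type was checked by markers. All 9 B cell markers were over the value of 10 reads, and their summed level was 4355 to 4977 CPM without stimulus and 3114 to 3551 with CpG. Of 6 T cell and 4 NK cell markers 0 had a mean over all 6 samples above the value of 10 reads, and of 4 pDC markers 1 did. In the CpG group alone the mean of the NK cell marker Klrb1c, -0.13 log2 CPM, was above that value. The NK cell sum was 0.206 to 0.304 CPM without stimulus and 0.683 to 1.4 with CpG, and the pDC sum 1.54 to 2.45 and 0.933 to 1.31, in both cases without overlap, while the T cell sum overlapped, at 0.647 to 0.919 and 0.803 to 1.29. The markers within a list did not move together. Of 4 NK cell markers 2 had a higher mean with CpG and 1 a lower one. Klrb1c went from -4.65 to -0.13 log2 CPM and Klrd1 from -2.76 to -4.62. Of 4 pDC markers 3 had a lower mean and 1 a higher one. Ccr9 went from 0.78 to -0.16 and Siglech from -3.63 to -2.66. All means of Klrd1 and Siglech were under the value of 3 reads. The part of these transcripts in the results was not tested. Erythroid transcripts summed to 385 to 615 CPM in replicates 1 and 3, and to 3855 and 4919 CPM in replicate 2 of the unstimulated and the CpG group. Without both samples numbered 2 the same count of the 10 genes was called, 5 higher and 4 lower, with Irak3 at -1.77, Irak2 at -1.10, Ticam1 at 0.82 and Myd88 at 0.67 in log2FC.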

How the data were processed

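Bead-purified B cells were profiled by paired-end RNA-seq in 3 CpG-stimulated and 3 unstimulated samples. Per the submitters' processing notes, reads were handled with FastQC 0.11.7, Trim Galore 0.6.5, STAR 2.6.1a, featureCounts (Subread 2.0.1) and limma, on mm10. The authors deposited log2 CPM values per gene symbol, computed with voom and quantile normalised. Depth per sample can no longer be read from them: CPM sums ran from 992384 to 1012396, and the common level of genes without reads, -5.15, corresponds to a library of 17.8M reads, which sets the stated worth in reads. In 6925 genes the deposited values were identical, to the last digit, in both samples of every replicate number, and in 1481 of these they were not identical between numbers. The step that made this pattern is not named in the sources used here.

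The deposited values were fitted with limma 3.58.1 (R 4.3.3, eBayes with trend) on group, without a block. Genes over the value of 10 reads (-0.76) in 3 or more samples were kept, and p-values were adjusted by Benjamini-Hochberg over all 11233. Summaries were made with Python 3.11.15. Only the limma fit was tested on simulated data, in which far fewer genes changed than here. Same-numbered samples deviated together from their group means (correlations of 0.435, 0.224 and 0.300, against -0.281 to 0.028 for other pairs), and same-numbered samples share their sex in the labels, so the numbers pair the samples. That correlation includes whatever step made the values alike within a number. The smallest two-sided exact permutation p for 3 against 3, without pairing, is 0.1.

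Members and pathway lists were chosen with earlier results of these data known. Named were all 10 members, from each list the called genes with the largest rise and fall, Tlr7, Tlr9, Traf6, Tab1 and Tab3, and the 5 nearest profiles of the highest and lowest member. Exon lengths and positions came from GENCODE M21 (GRCm38), promoters from RefSeq. Older symbols were matched through RefSeq synonyms (Otulin as Fam105b, Adgre1 as Emr1, Hbb-bs as Beta-s), and Trac was not matched. Alternatives were no filter, a filter in all 6 samples, log2(CPM + 1), the block, leaving out each sample, female samples, eBayes without trend, median centring, and, chosen after seeing the data, leaving out both samples numbered 2. Protein sequences were not used here.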

Additional observations from a re-analysis of the deposited data

How the results depend on the processing

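Over 14 alternatives, 139 of 140 log2FC values of the 10 adaptor genes kept their direction and their side of the FDR threshold of 0.05. The exception was Unc93b1 without the filter on low values, at 0.33 with an FDR of 0.0518, which left 4 genes called higher instead of 5. Of 277 values of the other named genes 272 kept both and 0 turned direction: Tab1 was not called without CpG replicate 1 (FDR = 0.0506), CpG replicate 3 (0.0692) or Unstimulated replicate 2 (0.0544) or in the female samples (0.142), and Tab3 was called without Unstimulated replicate 3 (-0.21, FDR = 0.0411). With the replicate block, which pairs the samples by number, Irak3 was at -1.66 (FDR = 9.56e-09) and Tirap at 0.18 (FDR = 0.0723), and the block changed no call of the 10 genes or the other named genes. Over all genes it gave 4390 higher and 4287 lower calls. Without each sample in turn Irak2 ran from -1.16 to -0.99, Myd88 from 0.54 to 0.63 and Tirap from 0.07 to 0.25. Over all alternatives genes called higher numbered 3648 to 4390 and lower 3542 to 4287, beside 4227 and 4123. The Il18rap, Irak1bp1 and Map2k6 values, from 2.33, 3.04 and -2.93, were moved by over 1.5 times on the log2(CPM + 1) scale, to 0.54, 1.57 and -1.18. In each of the 3 genes all samples of the lower group were under 1 CPM, the amount that this scale adds. Quantile normalisation by the authors fixes the distribution of each sample, so a change in total RNA cannot be read, and 3 samples a group limit what can be called.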
